A study of Mus musculus with 4 samples.

Results

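The genes described here are 5 genes tied to steroid hormones in the deposited gene table of an ATAC-seq study of mouse fat: the receptor genes Pgr and Nr3c2, the steroid enzyme gene Hsd17b11, and Zbtb16 and Camkk2, known as targets of steroid receptors. They were taken by symbol, 5 of 11993 genes, and the table linked them to 12 of the 12477 regions that the authors merged over all libraries. ATAC-seq marks open chromatin, since the Tn5 transposase cuts and tags DNA that is not wrapped tightly. Subcutaneous white fat that had been frozen was taken from wild-type mice, with 2 libraries from males and 2 from females, and the design names the comparison of the sexes. The labels give no strain, age or treatment and do not say whether both libraries of a sex are different animals. The spread between these libraries may therefore be technical. In the main comparison p-values rest on that spread as estimated over all genes, not gene by gene. Chromatin was taken from whole tissue, in which fewer cells with an open region and a less open region in each cell cannot be told apart.

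Steroid receptors of the nuclear receptor family are transcription factors that bind a hormone, move to or stay in the nucleus and attach to DNA at hormone response elements, where they open chromatin and recruit coactivators. Pgr encodes the progesterone receptor, whose gene is itself induced by the estrogen receptor in many tissues. Nr3c2 encodes the mineralocorticoid receptor, which binds aldosterone and also glucocorticoids and is known to favour adipocyte differentiation. Hsd17b11 encodes a short-chain dehydrogenase that sits on lipid droplets and, in human, oxidises an androgen metabolite. Zbtb16 encodes PLZF, a zinc finger repressor known to be induced by glucocorticoids. Camkk2 encodes a calcium- and calmodulin-dependent kinase that activates AMPK and is an androgen target in human prostate cancer cells.

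Promoter windows, from 250 bases before to 50 after a RefSeq start site in the build GRCm38.p6, which has the coordinates of mm10, were matched by symbol for 4 of the 5 genes, all but Zbtb16. The windows of Nr3c2, Hsd17b11 and Camkk2 overlapped a region linked to the gene, by 271, 257 and 125 of 300 bases, and these 3 are printed because they hold the DNA whose openness is reported below. Capitals mark the bases inside the peak interval of every library that had a peak there: 3 libraries for Nr3c2 (chr8:76902080-76902379, plus strand), 4 for Hsd17b11 (chr5:104021747-104022046, minus strand) and 1, female 1, for Camkk2 (chr5:122779361-122779660, minus strand).
Nr3c2: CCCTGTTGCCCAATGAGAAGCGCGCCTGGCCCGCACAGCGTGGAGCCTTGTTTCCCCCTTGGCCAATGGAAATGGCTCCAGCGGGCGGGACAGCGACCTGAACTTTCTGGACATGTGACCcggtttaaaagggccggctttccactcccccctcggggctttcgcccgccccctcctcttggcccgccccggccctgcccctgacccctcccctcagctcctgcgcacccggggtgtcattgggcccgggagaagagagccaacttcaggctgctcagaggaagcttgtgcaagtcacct
Hsd17b11: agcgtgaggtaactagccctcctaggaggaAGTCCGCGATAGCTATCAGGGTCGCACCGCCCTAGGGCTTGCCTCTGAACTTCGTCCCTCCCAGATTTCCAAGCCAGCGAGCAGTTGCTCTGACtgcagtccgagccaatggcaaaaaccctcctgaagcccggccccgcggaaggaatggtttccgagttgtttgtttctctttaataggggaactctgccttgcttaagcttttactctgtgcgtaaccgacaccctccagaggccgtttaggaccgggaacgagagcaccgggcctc
Camkk2: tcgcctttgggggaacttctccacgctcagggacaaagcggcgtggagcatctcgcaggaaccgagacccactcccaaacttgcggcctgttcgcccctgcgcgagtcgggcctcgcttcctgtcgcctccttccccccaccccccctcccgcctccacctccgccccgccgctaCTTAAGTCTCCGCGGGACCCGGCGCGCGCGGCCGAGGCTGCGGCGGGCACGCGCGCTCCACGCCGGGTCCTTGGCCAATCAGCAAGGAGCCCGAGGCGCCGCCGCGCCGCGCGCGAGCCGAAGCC
The capitals cover 120 bases at Nr3c2, 94 at Hsd17b11 and 125 at Camkk2. At Nr3c2 and Hsd17b11 they lie before the start site of the window, and at Camkk2 they include it. The windows of Nr3c2 and Camkk2 are set on the start sites 76902330 and 122779410, which lie inside the outer bounds that RefSeq gives these genes. The window of Pgr (chr9:8899583-8899882) overlapped no region, and the nearest region linked to Pgr began 351 bp past its end.

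The windows differed in base composition. The G and C content was 73.3% at Camkk2, 65.7% at Nr3c2, 57.0% at Hsd17b11 and 43.7% at Pgr, which are the 94.5th, 83.0th, 62.6th and 18.2nd percentiles of 32851 RefSeq windows. The ratio of observed to expected CG pairs was 1.08 at Camkk2 (97.5th percentile), 0.742 at Hsd17b11, 0.537 at Nr3c2 and 0.427 at Pgr. Searched on both strands, the receptor motif AGAACA, read by the glucocorticoid, mineralocorticoid and progesterone receptors, was in 0 of the 4 windows and in 19.0% of all windows. The motif AGGTCA, read by estrogen and other nuclear receptors, was likewise in 0 of 4 and in 16.3% of all. The full palindromes, in which each motif is followed by 3 bases of any kind and its own reverse complement, contain these motifs and were in 0 of 4 windows, and in 3 (AGAACA) and 7 (AGGTCA) of all windows. Motifs chosen after the sequences were seen were CCAAT, in 4 of 4 windows and 37.4% of all, and GGGCGG, in 4 of 4 and 35.7% of all. In the capitals above, CCAAT occurs at bases 10 and 63 of the Nr3c2 window and at base 250 of the Camkk2 window, and GGGCGG occurs at base 83 of the Nr3c2 window and, on the other strand, at base 57 of the Hsd17b11 window.

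Values are peak heights, the scaled tag coverage at the highest point of a region, and a gene's deposited value is the mean over its regions. The files used here hold no read totals, and the depth behind each height is unknown. The libraries differed as a whole: the median height over all genes was 24.0 in male 1 and 14.7 in male 2, against 38.0 in female 1 and 30.2 in female 2. Male 2 stood apart also by its interval width, with a median of 284 bp against 160 to 171 bp in the other 3 libraries. Of 13 adipocyte markers 9 were measured, and their summed height was 191 in male 1 and 117 in male 2, against 370 in female 1 and 274 in female 2. Peaks were linked to 3 of the 9 in male 1 and 1 in male 2, and to 8 in female 1 and 6 in female 2. Over all genes the shares with a linked peak were 61.2% in male 1 and 49.1% in male 2, and 89.7% in female 1 and 76.7% in female 2. Adipoq, Fabp4, Lep and Plin1, the other 4, were not analysed here.

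The 5 genes had lower heights in both males than in both females, and none passed the test over all genes. Heights were compared as log2(height + 9) in limma, with Benjamini-Hochberg adjustment over all genes, which called 0.592% of genes lower in males and 0% higher at an adjusted p under 0.05. Males were below females without overlap for 5 of the 5 genes, and for 76.4% of all genes, while 0.35% of all genes had males above females. At an unadjusted p under 0.05, 4 of the 5 were lower in males, all but Camkk2, beside 31.4% of all genes, and 1 gene of the table was higher. In log2(height + 9), males minus females, the median gene had a difference of -0.63. Relative values below are a gene's difference less that of the median gene, so that a negative one lies further below. The differences of the 5 genes ranged from -1.31 at Nr3c2 to -0.72 at Camkk2, and the 95% interval of each contained that median. These intervals include differences between whole libraries, so they do not measure a gene's distance from the median. With libraries centred on their medians, Nr3c2 had -0.70 (SE 0.29, limma unadjusted p = 0.0361, adjusted p = 0.609). The other 4 had limma unadjusted p of 0.191 to 0.641 there. With 2 libraries a sex, the smallest two-sided p of an exact permutation test is 0.33.

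**Figure D1:**
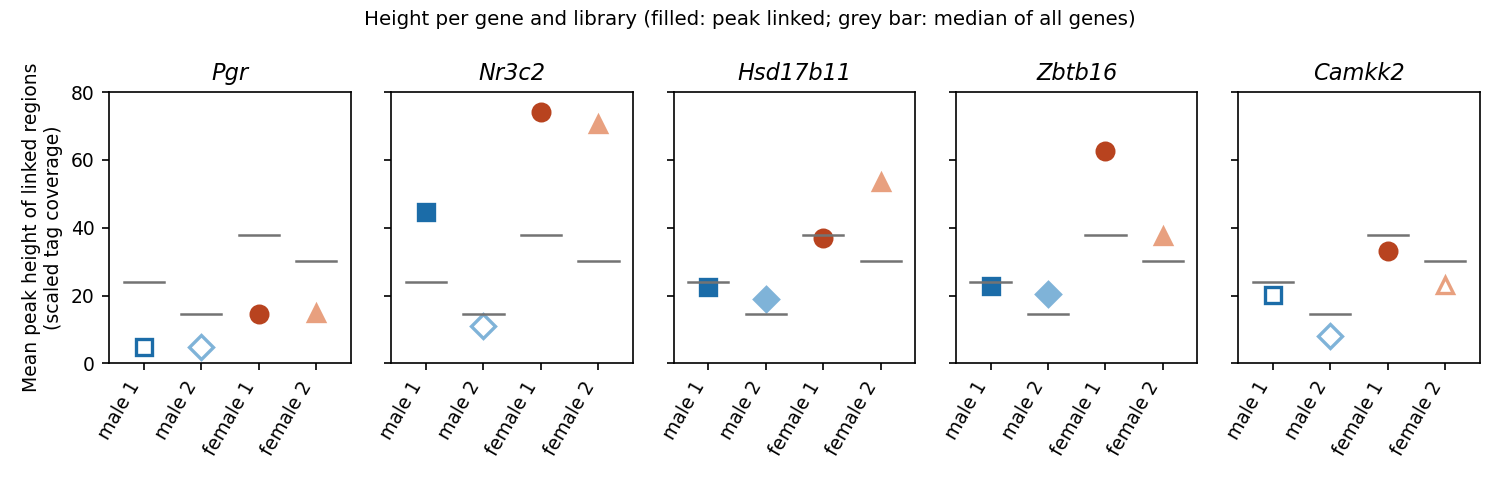
Mean peak height of the linked regions (scaled tag coverage, vertical axis) of the 5 genes in male 1, male 2, female 1 and female 2; filled symbols mark libraries with a peak linked to the gene, and grey bars the median height of all genes in that library. Both males lie below both females in each panel, as do the grey bars, and Nr3c2 in male 2 (11.0) lies far below male 1 (44.5).

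Pgr, the progesterone receptor gene (GeneID 18667, chromosome 9, 8899833 to 8968611, plus strand), had the lowest heights of the 5 genes. Its height was 4.95 in male 1 and 4.77 in male 2, against 14.5 in female 1 and 14.8 in female 2. The libraries of a sex nearly coincided, with means of 4.86 ± 0.124 in males and 14.6 ± 0.210 in females (SD, n = 2 each). The log2 difference was -0.77 (SE 0.34, limma adjusted p = 0.135), a relative value of -0.14. At such low heights the added constant sets this value: it was -1.42, or -0.58 relative, with 1 added (limma adjusted p = 0.151) and -0.31, or 0.03 relative, with 36 added (limma adjusted p = 0.128). These heights are low within every library, at the 1.18th and 4.11th percentiles of all genes in the males and the 3.14th and 8.27th in the females.

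The close agreement of the gene means hid a larger spread of the regions behind them. A region of 141 bp inside the gene (chr9:8900233-8900373), with its summit 519 bp past the start, had a peak in female 2 alone. Its height was 5.66 in male 1 and 2.20 in male 2, against 13.0 in female 1 and 18.1 in female 2. A region of 100 bp that begins 1795 bp past the end of the gene (chr9:8970406-8970505) had a peak in female 1 alone. Its height was 4.24 in male 1 and 7.34 in male 2, against 16 in female 1 and 11.5 in female 2. In each sex the library that was higher at the first region was lower at the second, and at both regions males lay below females. The second region was linked also to Gm16485, 1359 bp upstream of its start, so it need not belong to Pgr. The 2 called summits, 18.1 and 16, were at the 6.12th and 1.29th percentiles of the summits of their libraries, and so close to the lowest that were called.

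Mammary epithelium lies in the subcutaneous fat of female mice and uses the progesterone receptor, so its markers are given beside Pgr. Of 18 markers 5 were measured, and 2 of the 5 were called lower in males, beside 0.592% of all genes. With centring, with quantile normalization or with a filter at the 25th percentile of height no gene of the table was called. The 2 called markers were the epithelial protease gene St14 and its inhibitor gene Spint2 (limma adjusted p = 0.0283 for each), named after their values were seen. Each was linked to 1 region with a peak in female 1 alone. Their entry through a female peak favours higher female heights at them. The summed height of the 5 measured markers was 80.2 in male 1 and 39.7 in male 2, against 173 in female 1 and 135 in female 2. The median log2 difference of the 5 was -0.57 relative to all genes, with values from -0.74 to -0.04. Calls were not particular to this list. Of 5 Schwann cell markers measured, 1 was called lower in males, and that list had a relative median of -0.0006. The 3 measured progenitor markers had a relative median of -0.25, the 3 endothelial ones 0.15, and the 1 skeletal muscle marker lay at -0.58. The 9 measured adipocyte markers had -0.20 and the 2 macrophage ones 0.04. The 1 mural marker lay at -0.32 and the 1 lymphocyte marker at -0.15. The keratin genes Krt5, Krt7, Krt8, Krt14, Krt18 and Krt19 and the epithelial adhesion genes Epcam and Cdh1 were not analysed here. The part of these cells in the Pgr values was not tested.

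Nr3c2, the mineralocorticoid receptor gene (GeneID 110784, chromosome 8, 76902508 to 77243639 in the deposited table, plus strand), had the highest mean height of the 5 genes. Its height was 44.5 in male 1 and 11.0 in male 2, against 74.0 in female 1 and 70.7 in female 2. The females differed by 3.31 in height, while the height of male 2 was 0.247 of that of male 1. The log2 difference was -1.31 (SE 0.41, limma adjusted p = 0.0826), a relative value of -0.68. The means were 27.8 ± 23.7 in males and 72.3 ± 2.34 in females (SD, n = 2 each). Ranked from the lowest difference, Nr3c2 stood at 0.642% of all genes.

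The size of the difference at Nr3c2 rested largely on male 2. Within its library the gene stood at the 94.1st percentile in male 1 and the 27.8th in male 2, against the 94.5th in female 1 and the 97.9th in female 2. Without male 2 the log2 difference was -0.60, or -0.21 relative to the median (limma adjusted p = 0.538). Without male 1 it was -2.02, or -1.16 relative to the median (limma adjusted p = 6.2e-05), in a fit that called 6391 genes lower. With 1 male left, that male is assumed to vary as the females do.

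All of this signal came from 1 region of 351 bp (chr8:76902000-76902350), whose promoter sequence is printed above. It had peaks in male 1, female 1 and female 2, with summits at 76902080, 76902096 and 76902144, and none in male 2. The summits lay 428, 412 and 364 bp upstream of the deposited start in that order. In the RefSeq annotation of GRCm38.p6 the gene begins at 76898083, so that there the region lies inside the gene. The summits of male 1, female 1 and female 2 were at the 87.0th, 93.0th and 96.3rd percentiles of their libraries' summits. The region was linked also to Gm10649, a gene on the other strand whose start lies 1907 bp from the nearest summit, so the height need not belong to Nr3c2 alone.

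Hsd17b11, the steroid dehydrogenase gene (GeneID 114664, chromosome 5, 103989765 to 104021796, minus strand), had a peak in all 4 libraries. Its height was 22.6 in male 1 and 19.1 in male 2, against 37.0 in female 1 and 53.4 in female 2. The males were close together, and the females differed by 16.4, more than the 14.4 between the lower female and the higher male. The log2 difference was -0.85 (SE 0.40, limma adjusted p = 0.145), a relative value of -0.22. The means were 20.9 ± 2.49 in males and 45.2 ± 11.6 in females (SD, n = 2 each). Female 2 decided the sign of the relative value: without that library the log2 difference was -0.63, or 0.14 relative to the median.

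The openness of Hsd17b11 lay in 1 region of 304 bp just before its start (chr5:104021790-104022093), linked to no other gene. The summit stood 188 bp upstream of the start in male 1, female 1 and female 2, and 156 bp upstream in male 2, a shift of 1 step of the grid of 32 bp on which 92.7% of all summits lie. The interval was 129 bp wide in male 1 and 255 bp in male 2, against 147 bp in female 1 and 302 bp in female 2. Within its library the gene stood at the 44.0th percentile in male 1, the 68.4th in male 2, the 46.1st in female 1 and the 90.8th in female 2. Libraries of the same sex thus differed in rank by more than male 1 differed from female 1.

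Zbtb16, the PLZF gene (GeneID 235320, chromosome 9, 48654297 to 48835945, minus strand), was linked to 6 regions, and only 18 of 11993 genes (0.150%) had 6 or more. Its mean height was 22.9 in male 1 and 20.4 in male 2, against 62.7 in female 1 and 37.7 in female 2. The males nearly coincided, while female 1 was far above female 2. The log2 difference was -0.92 (SE 0.40, limma adjusted p = 0.135), a relative value of -0.29. Males averaged 21.6 ± 1.71 and females 50.2 ± 17.7 (SD, n = 2 each).

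At the Zbtb16 start the sexes overlapped. That region spans 615 bp just upstream of the deposited start (chr9:48835947-48836561) and contains the RefSeq start at 48836225, and it had peaks in all 4 libraries. The highest summit was 21.9 in male 1 and 45.5 in male 2, against 96.0 in female 1 and 41.1 in female 2, so male 2 lay above female 2. The summits also stood apart, 247 bp upstream of the deposited start in male 1, 55 bp in male 2 and 535 bp in female 1. Female 2 had 3 separate peaks within the region, 55, 375 and 535 bp upstream. Among the summits of its own library that of male 2 was at the 93.9th percentile and that of male 1 at the 17.0th, against the 98.6th in female 1 and the 67.2nd in female 2.

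The other 5 regions lay deep in or beyond Zbtb16 and were called mainly in females. Counted along the gene, 4 lay inside it, with summits about 75.3, 98.1, 112 and 128 kb from the start. The fifth (chr9:48649105-48649416) lay past the end of the gene, 4881 bp from it at its near edge. Peaks in 3 libraries were found at 1 of them (chr9:48723659-48723948, 112 kb), with summits of 29.0 in male 1, 57.0 in female 1 and 48.5 in female 2. At chr9:48760468-48760667, chr9:48737561-48737831 and the region past the end, both females and neither male had a peak. Their heights were 49.0, 67.0 and 68.0 in female 1 and 34.5, 41.9 and 36.2 in female 2. The last (chr9:48707426-48707511, 128 kb) had a peak in female 1 alone, with a height of 39.0 there and 23.8 in female 2.

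Heights of single Zbtb16 regions without a peak in the males could not be separated, but their means could. Over the 4 regions with no male 1 peak the mean height was 21.6, close to the 21.9 of its start region. Over the 5 regions with no male 2 peak the mean was 15.4, against 45.5 at its start. Of the 5 regions away from the start, 4 had no peak in a male and so entered the merged set through females alone, a choice that favours higher female heights there.

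**Figure D2:**
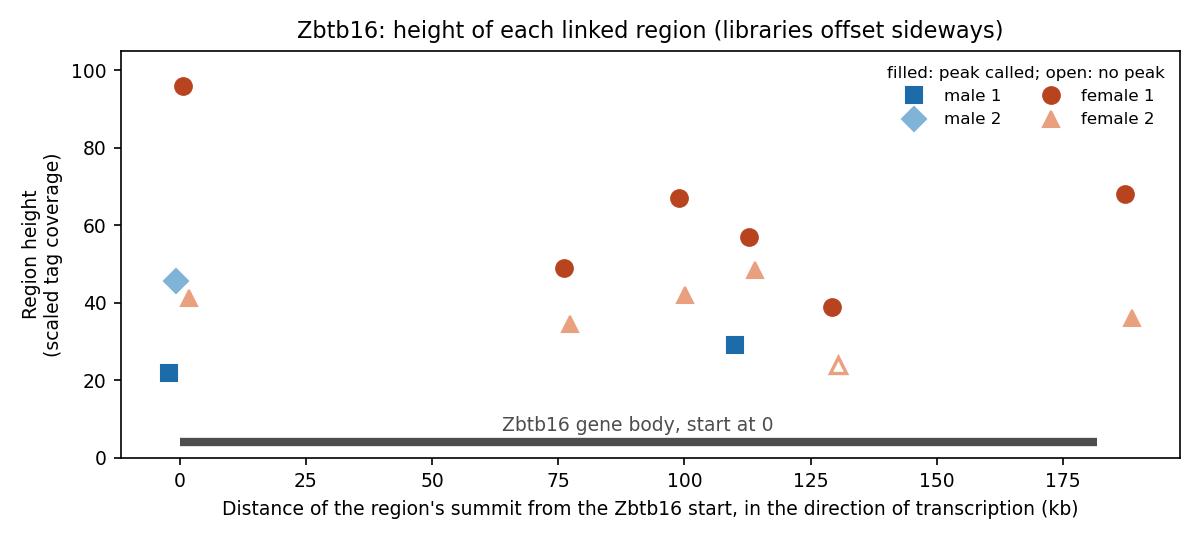
Height of each region linked to Zbtb16 (scaled tag coverage, vertical axis) against the distance of its summit from the start of the gene (kb, horizontal axis) in each library, with libraries offset sideways; filled symbols mark called peaks, the open one a height obtained by subtraction, and male values that could not be separated are not drawn. At the start male 2 (45.5) lies above female 2 (41.1), and further along the gene the only male peak is that of male 1 at 112 kb (29.0).

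Camkk2, the kinase gene (GeneID 207565, chromosome 5, 122731170 to 122779410, minus strand), had a peak in female 1 alone. Its height was 20.1 in male 1 and 8.08 in male 2, against 33.0 in female 1 and 23 in female 2. Male 1 was close to female 2, and male 2 was the lowest. The log2 difference was -0.72 (SE 0.37, limma adjusted p = 0.160), a relative value of -0.09. Males averaged 14.1 ± 8.53 and females 28.0 ± 7.06 (SD, n = 2 each). Without male 2 the difference was -0.33 (limma adjusted p = 0.604), and the relative value changed sign to 0.07.

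Both Camkk2 regions gave nearly the same picture. The region at the start (chr5:122779346-122779485, 140 bp, summit 46 bp upstream of the deposited start) had heights of 19.8 in male 1 and 8.08 in male 2, against 37.0 in female 1 and 22.2 in female 2. The region inside the gene (chr5:122770821-122770935, 115 bp, summit 8546 bp past the start) had 20.5 in male 1 and 8.08 in male 2, against 29.0 in female 1 and 23.8 in female 2. Males lay below females at both, by a margin of 2.40 and 3.34 between the higher male and the lower female. The first region was linked also to Anapc5, a subunit gene of the anaphase-promoting complex, from 41883 bp downstream of its start. The RefSeq annotation ends Camkk2 at 122779522, and by it the first region lies inside the gene.

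Ranks within a library do not depend on how the library was scaled, and by rank the sexes overlapped for 4 of the 5 genes. For Nr3c2 they did not overlap, by the narrow margin between male 1 and female 1 given above. The share of all genes whose sexes overlap by rank was not counted, so this count has no background beside it. Pgr was among the lowest genes in all 4 libraries. Camkk2 stood at the 34.6th and 12.9th percentiles in males and the 36.1st and 26.9th in females. Zbtb16 stood at the 46.2nd and 73.6th percentiles in males and the 88.2nd and 69.5th in females. For Hsd17b11, Nr3c2, Zbtb16 and Camkk2 the libraries of at least 1 sex were further apart in rank than those of Pgr in either sex.

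**Figure D3:**
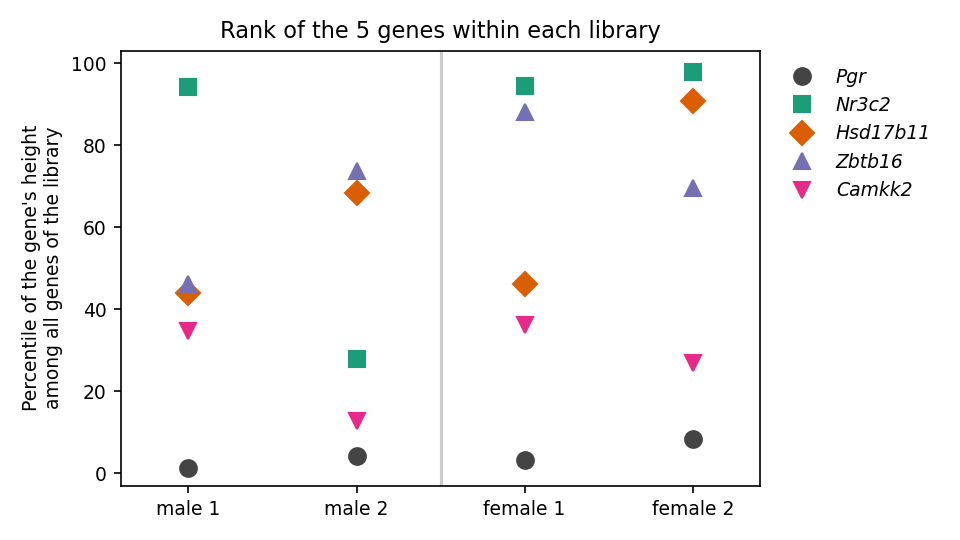
Percentile of each gene's height among all genes of the same library (vertical axis) in male 1, male 2, female 1 and female 2. Nr3c2 lies above the 94th percentile in 3 libraries and at the 27.8th in male 2, and Pgr is at or below the 8.27th in all 4.

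Peak presence followed the libraries. Of the 12 regions linked to the 5 genes, 4 had a peak in male 1 and 2 in male 2, against 11 in female 1 and 8 in female 2. Over all merged regions the shares were 43.0% in male 1, 32.4% in male 2, 79.9% in female 1 and 62.8% in female 2. The shares among the 12 were 33.3%, 16.7%, 91.7% and 66.7% in the same order. They were lower in males and higher in females than over all regions. That rests on very few regions, 6 of them linked to Zbtb16 alone, and on no test. The 2 regions with peaks in all 4 libraries (19.9% of all regions) were those at the starts of Hsd17b11 and Zbtb16. Peaks in both females and neither male were found at 3 regions, all of Zbtb16 (12.9% of all regions), and peaks in both males and neither female at 0 (0.465%). Nr3c2 and the Zbtb16 region at 112 kb had peaks in both females and male 1 (14.4%). Peaks in female 1 alone were found at 4 regions (23.1%), and in female 2 alone at 1, that inside Pgr (10.4%). In all, 8 of the 12 regions had peaks in females alone (46.3% of all regions), among them both regions of Pgr and of Camkk2, and their entry through female peaks favours higher female heights at them.

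**Figure D4:**
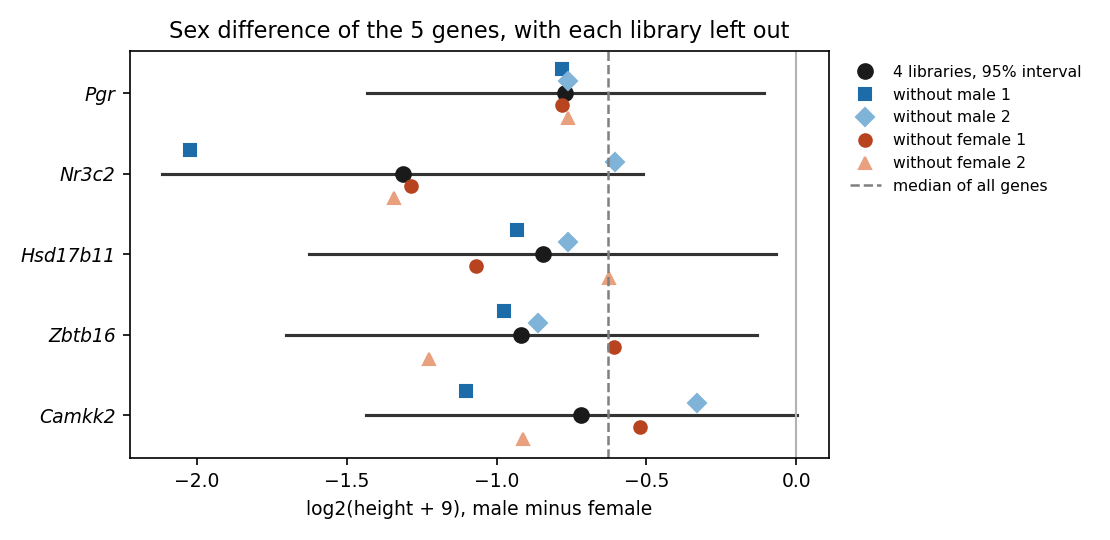
Difference in log2(height + 9), male minus female (horizontal axis), of the 5 genes with all 4 libraries (black, with the 95% limma interval) and with each library left out (coloured symbols); the dashed line is the median of all genes with 4 libraries. Each black interval contains the dashed line, but it includes differences between whole libraries and does not measure distance from that line. Nr3c2 moves to -2.02 without male 1 and to -0.60 without male 2.

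Genes with the most similar heights were found by the distance between values of log2(height + 9) over the 4 libraries, as a description. For Pgr they were Rab27b, Pcdh7 and Zcchc10, at distances of 0.17 to 0.19. For Nr3c2 they were Zfp280d, Clybl and Ube3c (0.23 to 0.26). The nearest, Zfp280d, had 48.1 in male 1 and 9.55 in male 2, against 85.0 in female 1 and 70.7 in female 2; the low male 2, which all 3 share, follows from choosing them for likeness to Nr3c2. For Hsd17b11 they were Mettl17, which shares its region with Slc39a2, Pigv and Dcst2 (0.25 to 0.26), and for Zbtb16 Elp5, Parp16 and Larp4 (0.14 to 0.16). For Camkk2 they were Prnp, Nup155 and Foxp1 (0.05 to 0.09), the closest likeness of the 5.

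The wider steroid pathway was described with 7 lists of 102 different genes, of which 62 were measured. None of the 62 passed the limma test over all genes in either direction, and 19 were lower and 0 higher at an unadjusted p under 0.05, beside 31.4% of all genes lower, so the count is near the background. Of the 62, 52 (83.9%) had both males below both females, beside 76.4% of all genes. Without the 5 genes the figures were 0 of 57 and 47 (82.5%), and the median log2 difference of the 57 lay at -0.02 relative to all genes. Of the receptors only Nr3c1, the glucocorticoid receptor, was measured beside Pgr and Nr3c2. It had 28.6 in male 1 and 16.5 in male 2, against 40.0 in female 1 and 30.4 in female 2, or 0.12 relative to the median. The genes of the estrogen receptors Esr1 and Esr2 and the membrane receptor Gper1 were not analysed here.

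Chaperones and coregulators, which fold receptors or carry their signal to chromatin, had a median of 0.01 relative to all genes, with 13 of 14 measured. The lowest p-values belonged to Ncoa3, a coactivator, and Pgrmc2, a membrane protein. Ncoa3 had 13.4 ± 4.48 in males and 34.4 ± 4.43 in females (SD, n = 2 each). Pgrmc2 had 26.1 ± 16.1 in males and 55.8 ± 10.3 in females (SD, n = 2 each). Ncoa3 and Pgrmc2 lay at -0.33 each relative to the median, and Pgrmc1, whose region was shared with Akap17b, at -0.09. The chaperone Hsp90aa1 lay at 0.45, with 30.4 in male 1 and 51.4 in male 2, against 62.0 in female 1 and 33.7 in female 2, where the sexes overlapped.

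Steroid enzymes and carriers had a median of -0.07 relative to all genes, with 11 of 26 measured and both males below both females for all 11, beside 76.4% of all genes. Hsd3b7, an enzyme of bile acid synthesis, had 36.8 in male 1 and 16.9 in male 2, against 59.0 in female 1 and 75.6 in female 2, or -0.51 relative to the median (limma adjusted p = 0.102). The mitochondrial enzyme gene Hsd17b10 lay at -0.16 and Hsd11b1, which regenerates active glucocorticoid in fat, at -0.07. The aromatase gene Cyp19a1 was not analysed here.

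Genes known to respond to steroids lay near the median of all genes as lists. The estrogen-responsive list (8 of 16 measured) had a median of -0.14, the androgen-responsive list (8 of 13) -0.10 and the corticosteroid-responsive list (15 of 18) -0.02. These lists share genes with each other and with the 5: Pgr is estrogen-responsive, Camkk2 androgen-responsive and Zbtb16 both androgen- and corticosteroid-responsive by these lists. Of the estrogen-responsive genes Mybl1 lay at -0.43, the cathepsin gene Ctsd at -0.39 and Gata3, whose region was linked also to other genes, at -0.26. Igf1 was the only gene of the 62 with a positive difference, with 11.3 in male 1 and 8.08 in male 2, against 5 in female 1 and 9.04 in female 2, from a region shared with Gm19894, 43024 bp from its start. The sexes overlapped there.

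Among androgen-responsive genes other than Zbtb16 and Camkk2, the acyl-CoA synthetase gene Acsl3, whose region was shared with Utp14b, lay at -0.27 and Ppap2a at -0.18 relative to the median. Of the corticosteroid-responsive genes the phosphatidate phosphatase gene Lpin1 came closest to the threshold, at 12.0 in male 1 and 5.87 in male 2, against 35 in female 1 and 34.5 in female 2 (log2 difference -1.31, limma adjusted p = 0.0516). Cebpd, a transcription factor of early adipocyte differentiation, lay at -0.43 and Angptl4, an inhibitor of lipoprotein lipase, at -0.39. Lpin1, Angptl4 and Cebpd each had 1 region, with a peak in female 2 alone, female 1 alone and both females in that order. Pgrmc1, Hsd17b10, Ctsd and Prkag1 likewise had 1 region each, with peaks in females alone. Entry through female peaks favours higher female heights at all of these genes. The kinase pathway around Camkk2 had a median of 0.00, with 10 of 14 measured, and its lowest p-values belonged to Stk11, the other upstream kinase of AMPK, at -0.22, to the AMPK subunit genes Prkag1 at -0.13 and Prkab1 (region shared with Gm13842) at -0.12, and to Camkk2 itself.

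**Figure D5:**
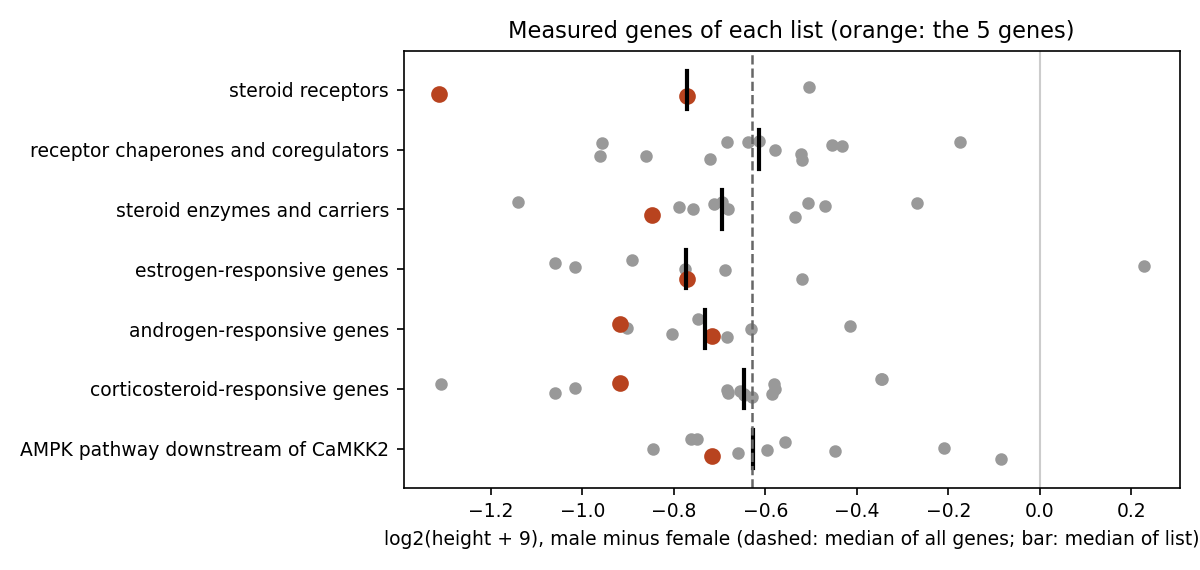
Difference in log2(height + 9), male minus female (horizontal axis), of every measured gene of the 7 lists, with the 5 genes in orange, the median of each list as a bar and the median of all genes (-0.63) as a dashed line. Relative to the dashed line the bars run from -0.14 to 0.01, and Nr3c2 is the lowest point of the receptor list.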

How the data were processed

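ATAC-seq was carried out on 4 libraries of subcutaneous white fat, 2 from males and 2 from females. Per the submitters' processing notes, BWA, MACS2 2.1.0 and mm10 were used; for filters, duplicates and a Tn5 shift nothing is stated. Per the file headers, the authors called peaks per library and merged them into regions. The deposited signal is the peak height, averaged by the authors over the regions of a gene. For single-region genes every height fell, within 0.05 of a step, on a multiple of a library's own step. The step was 0.707 in male 1, 0.734 in male 2, 1 in female 1 and 0.822 in female 2. These steps show that heights had been scaled in male 1, male 2 and female 2, and they show no scaling in female 1. Heights are coverage, not counts.

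Heights of single regions were taken from genes with that region alone, from the library's summit (equal to the height within 0.01 in 97.2% of 19900 cases) or by subtraction from gene means. Sexes were compared with limma 3.58.1 (R 4.3.3) with trend on log2(height + 9), the added 9 being the 5th percentile of nonzero heights, taken to the next whole number. All 11993 genes had nonzero heights in at least 2 libraries and were kept. In this main comparison limma took its spread from the trend over all genes. The fit was tested on simulated data. The 5 genes and the lists were chosen with earlier results of these data known. Beside the 5 genes and those sharing a region, up to 4 genes of a list with the smallest p were named, except where an item is not reported here; Hsp90aa1, Igf1, St14 and Spint2 were named after their values were seen. Alternatives were other pseudocounts, a filter, centring, quantile normalization, a replicate block, no trend, a row per set of regions, stricter peaks and each library left out. Gene IDs matched RefSeq for 11704 genes. Python 3.11.15, pandas 2.3.3, numpy 2.4.6 and matplotlib 3.10.9 were used.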

Additional observations from a re-analysis of the deposited data

How the results depend on the processing

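The differences of the 5 genes kept their sign under each alternative that gave a value; Pgr fell below the filter at the 25th percentile of height and has none there. None of the 5 passed with pseudocounts of 1 or 36, the filter, a row per set of regions, centring on medians or quantile normalization. With limma without trend Nr3c2 passed (-1.31, adjusted p = 0.0329). With the replicate number as a block the values were the same, -0.77 for Pgr, -1.31 for Nr3c2, -0.85 for Hsd17b11, -0.92 for Zbtb16 and -0.72 for Camkk2, and each passed (limma adjusted p 2.55e-04 to 0.0188), among 6918 genes lower and 7 higher. The labels do not say whether libraries with the same number belong together. Deviations of female 1 and male 1 from their sex means had a correlation of 0.02 over genes. A correlation leaves out an offset shared by all genes, which the block takes up, so it cannot decide this. Median heights were higher in replicate 1 of both sexes, 24.0 against 14.7 in males and 38.0 against 30.2 in females. With each library left out, the range was -0.78 to -0.76 for Pgr, -2.02 to -0.60 for Nr3c2, -1.07 to -0.63 for Hsd17b11, -1.23 to -0.61 for Zbtb16 and -1.10 to -0.33 for Camkk2; Nr3c2, Hsd17b11, Zbtb16 and Camkk2 passed without male 1 (limma adjusted p 6.2e-05 to 0.0276), and no gene of the 5 otherwise. Over all genes, 71 were called lower and 0 higher. Centring, quantile normalization and the filter each gave 0 lower, and 416 were lower without trend. With a library left out, 0 (without male 2) to 6391 (without male 1) were lower, with 19 without female 1, and 0 to 28 were higher. Before adjustment (p under 0.05), 436 genes were lower with centring, 426 with quantile normalization, 2736 with the filter and 986 without male 2. Relative to the median of all genes, Pgr lay at 0.08 without male 1 and at 0.00 without female 2. The causes were not tested. The difference in regions with a peak, male minus female, was -6.5 of 12 on average, -7.5 with 50% overlap, -6 with summits at or above the library median, and -8 to -5 with a library left out. Unknown depth limits every height, and 2 libraries a sex limit every test.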
